A study of Mus musculus with 15 samples.

Results

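The genes described here encode the ADAM and ADAMTS proteases, and the measurement is DNA methylation at CpGs in and around them in mouse sperm. Members were all CpGs listed in the deposited files that lie within the mm10 RefSeq span, or 2 kb on either side, of a protein-coding gene named Adam or Adamts with a number, with the Adamtsl genes left out. The rule used names and positions only. It gave 354 of 204492 listed CpGs, from 53 genes: 22 sperm-expressed Adam genes, 12 broadly expressed Adam genes and 19 Adamts genes. All 15 libraries were reduced representation bisulfite sequencing (RRBS) of sperm DNA from male C57BL/6 mice of generation G1, 7 labelled with a Control diet and 8 with PR, which the series describes as protein restricted. In RRBS the enzyme MspI cuts DNA at CCGG, and after bisulfite treatment the cytosines still read as C are counted as methylated. The labels do not say whether the sampled mice or a parent ate the diet, nor whether libraries came from separate mice, so p-values measure only the spread between these libraries, which may be technical.

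ADAM proteins are membrane-anchored proteins with a metalloprotease domain and a disintegrin domain that can contact integrins. Several of the broadly expressed members are known as sheddases, which release growth factors, cytokines and Notch signals from the cell surface. Others in that class, such as ADAM23, have no protease activity. Many rodent ADAM genes are instead expressed in testis, and their proteins, several without protease activity, sit on the sperm surface and serve in passage through the oviduct and contact with the egg. ADAMTS proteins are secreted, carry thrombospondin repeats and cut matrix proteins such as aggrecan, versican and procollagen. The class of each Adam gene was taken from this general knowledge and not from these files.

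Among genes with a matched promoter window, the classes differed in the number of CpGs around the start of the gene. RefSeq promoter windows of GRCm38.p6 (mm10), from 250 bases before to 50 bases after a start site, were matched for 28 of the 53 genes and gave 30 windows. Matched were 11 of 22 sperm-expressed Adam, 7 of 12 broadly expressed Adam and 10 of 19 Adamts genes. Adam2, Adam3, Adam5, Adam18, Adam24 and Adam32 had no window. The 4 windows below are shown as windows with no CpG, few CpGs and many CpGs, the last with several MspI sites. They run 5′ to 3′ on the strand of the gene with every CpG in capitals.
Adam26b: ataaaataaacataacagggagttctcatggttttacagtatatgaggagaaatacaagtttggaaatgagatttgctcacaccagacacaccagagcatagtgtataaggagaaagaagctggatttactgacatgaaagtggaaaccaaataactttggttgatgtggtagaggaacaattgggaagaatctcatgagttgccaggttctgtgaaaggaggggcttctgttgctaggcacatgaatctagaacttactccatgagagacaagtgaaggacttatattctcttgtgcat
Adam1a: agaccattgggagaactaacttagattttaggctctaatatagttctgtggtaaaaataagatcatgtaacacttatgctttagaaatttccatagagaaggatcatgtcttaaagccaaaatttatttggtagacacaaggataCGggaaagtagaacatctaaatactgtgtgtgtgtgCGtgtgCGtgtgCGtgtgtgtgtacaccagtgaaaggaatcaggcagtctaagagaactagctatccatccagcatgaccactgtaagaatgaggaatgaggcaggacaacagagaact
Adam17: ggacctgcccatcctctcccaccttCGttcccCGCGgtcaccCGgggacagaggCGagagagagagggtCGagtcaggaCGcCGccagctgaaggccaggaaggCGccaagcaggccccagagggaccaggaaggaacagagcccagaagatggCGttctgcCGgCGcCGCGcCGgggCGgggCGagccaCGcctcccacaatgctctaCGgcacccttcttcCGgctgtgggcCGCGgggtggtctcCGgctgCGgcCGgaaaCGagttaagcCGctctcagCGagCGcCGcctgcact
Adamts14: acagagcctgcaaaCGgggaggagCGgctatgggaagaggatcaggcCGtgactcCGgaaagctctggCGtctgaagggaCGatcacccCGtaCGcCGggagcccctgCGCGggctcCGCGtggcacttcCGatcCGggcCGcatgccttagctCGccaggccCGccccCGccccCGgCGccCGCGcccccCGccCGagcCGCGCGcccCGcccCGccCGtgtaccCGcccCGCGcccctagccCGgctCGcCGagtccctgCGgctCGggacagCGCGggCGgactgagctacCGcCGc
The Adam26b window, of a testis-expressed family member, is chr8:43528088-43528387 on the minus strand and holds 0 CpGs. The Adam1a window, chr5:121521646-121521945 on the minus strand, holds 4, the most among sperm-expressed Adam windows; Adam1a encodes a fertilin alpha subunit. The Adam17 window (chr12:21373583-21373882, minus strand), at the gene for the sheddase of tumour necrosis factor, holds 30 CpGs and 6 MspI sites. The Adamts14 window (chr10:61273370-61273669, minus strand), at a procollagen N-proteinase gene, holds 44 CpGs and 5 MspI sites.

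The motifs counted were CG and CCGG, each the same on both strands, and every CCGG contains a CG. In the 11 sperm-expressed Adam windows there were 0 to 4 CpGs (median 1), and 0 of the 11 held CCGG. The 9 windows of 7 broadly expressed Adam genes held 5 to 32 CpGs (median 19), with CCGG in 8 (88.9%). The 10 Adamts windows held 2 to 44 CpGs (median 23.5), with CCGG in 9 (90%). Over 21263 windows of all protein-coding genes in that table the median was 13, 95.4% held at least 1 CG and 62.2% held CCGG. The 0 of 30 windows with a listed CpG stood beside 0.550% of all windows, and 0.719% of all windows with CCGG. No listed position had fewer than 11 methylated reads in any library, so a sampled promoter with little methylation would be missing from it, and promoter methylation of these genes could not be read from these files. A match of letters is a description of the window and not evidence of a working site.

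**Figure D1:**
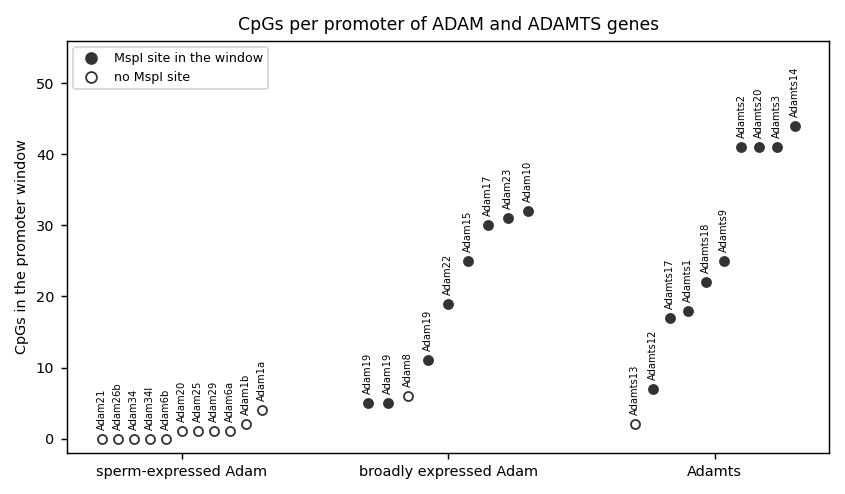
Number of CpGs (vertical axis) in each 300-base promoter window of an ADAM or ADAMTS gene, by gene class; each point is 1 window, filled where the window holds an MspI site. The 11 sperm-expressed Adam windows lie at 0 to 4 CpGs and are all open, while the broadly expressed Adam and Adamts windows reach 32 and 44 CpGs.

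Listed CpGs were found at 37 of the 53 genes (69.8%, beside 57.4% of 21900 protein-coding genes): 12 sperm-expressed Adam, 10 broadly expressed Adam and 15 Adamts genes, with 67, 80 and 210 CpGs. The 3 CpGs where Adam32 and Adam9 meet count in both Adam classes, and Adam34 and Adam34l share 1. No CpG was listed for the sperm-expressed Adam1b, Adam7, Adam20, Adam21, Adam25, Adam26a, Adam26b, Adam29, Adam30 and Adam39, for the broadly expressed Adam10 and Adam11, or for Adamts4, Adamts5, Adamts8 and Adamts10. Adam10 encodes the main Notch sheddase, and Adamts4 and Adamts5 encode the main aggrecanases. Sperm-expressed Adam genes were short, with a median span of 8.35 kb against 59.2 kb for broadly expressed Adam and 114 kb for Adamts genes. The most CpGs were at Adamts17 (42), then at Adam22 and Adamts20 (28 each); Adamts15, Adam33, Adam34 and Adam34l had 1 each. Of the 354 positions, 23 lay in a flank and the others inside a gene span. Exons and introns could not be told apart with the annotation at hand. Within 1 kb of a known start site there were 10 CpGs, all at Adam6a (4) and Adam6b (6), genes needed for male fertility, with means of 95.9% to 99.2% and the nearest at 715 bp from the start.

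The total count over listed positions was 7846118 to 11841657 per control library and 6650912 to 10712016 per protein restricted library. At the member CpGs the median coverage was 30 to 44.5 and 28 to 39 reads. No pair among 105 had identical counts. The labelled tissue could not be checked with these files: 37 CpGs within 20 kb of Meg3 and Rasgrf1, imprinted genes methylated on the paternal copy, had a mean of 97.2%, but the mean over all listed CpGs was 95.3%. The 15 maternally methylated imprinted genes found in the table had 0 listed CpGs within 1 kb of either end, as most promoters had. The reads carried no molecular identifiers and are not independent molecules.

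Across the family methylation was high, and the 3 classes differed by little. As the mean over CpGs in a library, sperm-expressed Adam genes had a control mean of 96.6% ± 0.613 (SD over 7 libraries), beside 96% ± 0.675 (SD over 8) under protein restriction. Broadly expressed Adam genes stood at 97.6% ± 0.282 and 97.7% ± 0.314, and Adamts genes at 96% ± 0.470 and 96.1% ± 0.380. All protein-coding genes measured the same way gave 96.4% ± 0.124 and 96.4% ± 0.0710. Broadly expressed Adam genes were above Adamts genes in 15 of 15 libraries, by 1.62 percentage points (0.956 to 2.57). The medians over CpGs had the other order, 98.2% for broadly expressed Adam and 98.4% for Adamts, and a mean under 90% was found at 1 of 80 and 21 of 210 CpGs. Sperm-expressed Adam genes were above Adamts genes in 9 libraries and below in 6, by a mean of 0.242 points with an SD of 0.657 over libraries, a difference smaller than its spread. That last difference depended on weighting: it was 2.24 points with each gene counted once, 1.11 points from summed counts, 2.98 points at CpGs with at least 20 reads in every library and −0.307 points over the gene spans alone. With each gene counted once, Adamts15, with a single CpG at a mean of 66.1%, weighed as much as any other Adamts gene. The median of the gene means was 97.2% in both the sperm-expressed Adam and the Adamts class. A gene mean between 96% and 99% was found at 10 of 12 sperm-expressed Adam, 10 of 10 broadly expressed Adam and 11 of 15 Adamts genes with listed CpGs.

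**Figure D2:**
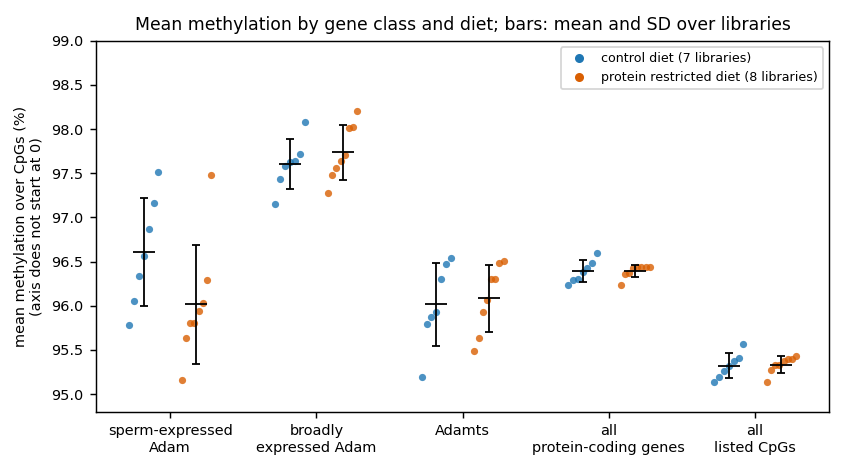
Mean methylation over the listed CpGs of each gene class, in percent (vertical axis, cut above 0), with 1 point per library, blue for control and orange for protein restricted; bars give the mean and SD over libraries. Sperm-expressed Adam libraries run from 95.2% to 97.5% and overlap between diets, and broadly expressed Adam libraries lie at 97.2% to 98.2%.

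No member gene or CpG passed its test between diets, and the class differences were not tested. Of the 3 classes, the sperm-expressed Adam genes differed most and had the largest SDs over libraries (0.613 in control, 0.675 under protein restriction). Their control libraries spanned 95.8% to 97.5% (median 96.6%), and their protein restricted libraries spanned 95.2% to 97.5% (median 95.9%). The ranges overlapped, 7 of the 8 protein restricted libraries lay below the control median, and the difference of the means was −0.595 percentage points. The same difference was 0.133 points for broadly expressed Adam, 0.0722 points for Adamts and 0.00349 points over all protein-coding genes. With each gene counted once the differences were −0.253 points for sperm-expressed Adam and −0.107 points for broadly expressed Adam. Over the 67 sperm-expressed Adam CpGs, 40 lower and 27 higher, the median difference was −0.314 points. Its 6 CpGs with a mean under 90% enter the class mean with larger differences. These were −5.13 points at an Adam1a CpG, −3.11 points over 4 neighbouring Adam18 CpGs and 1.25 points at another Adam18 CpG. With 1 library left out the broadly expressed Adam difference ran from 0.0572 (without Control 4) to 0.212 (without Control 6), and the Adamts difference from −0.0653 (without Control 5) to 0.159 (without Control 3).

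Each of 29 member genes with at least 3 listed CpGs was tested on its summed counts with a quasi-binomial model, fitted over 9223 protein-coding genes and adjusted by Benjamini-Hochberg at 0.05. None of the 29 was called, beside 0.0% of all genes, and 0 of the 29 had an unadjusted p under 0.05, beside 2.99% of all genes. No member gene was free of overlap between diets, beside 0.0217% of all genes. With limma on gene percentages or on logit values, 0 were called and 1 gene, Adam3, had an unadjusted p under 0.05 (3.45%, beside 4.74% and 4.84% of all genes). With the dispersion allowed below 1, 1 of the 29 had such a p, beside 4.81%. In direction, 7 of 8 sperm-expressed Adam genes were lower in protein restricted libraries (median −0.219 points), against 2 of 8 broadly expressed Adam genes (median 0.265) and 6 of 13 Adamts genes (median 0.0386). Over all 9223 genes 49.4% were lower and the median was 0.00707 points. The 7 lower sperm-expressed Adam genes ran from −1.37 points at Adam3 to −0.0192 at Adam5, where the unweighted means differed by 0.113 points. Of the genes of that class with too few CpGs for the test, the means were higher at Adam4 (0.540 points). They were also higher at the CpG shared by Adam34 and Adam34l (1.46 points), and lower at Adam1a (−2.72 points). The genes of a class are not replicates of the diet. Neighbouring genes can share CpGs. The span of Adam34 lies inside that of Adam34l, so their shared CpG is 1 position counted under both names. Adam6a with Adam6b, like Adam34 with Adam34l, are close copies between which reads may be assigned uncertainly.

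**Figure D3:**
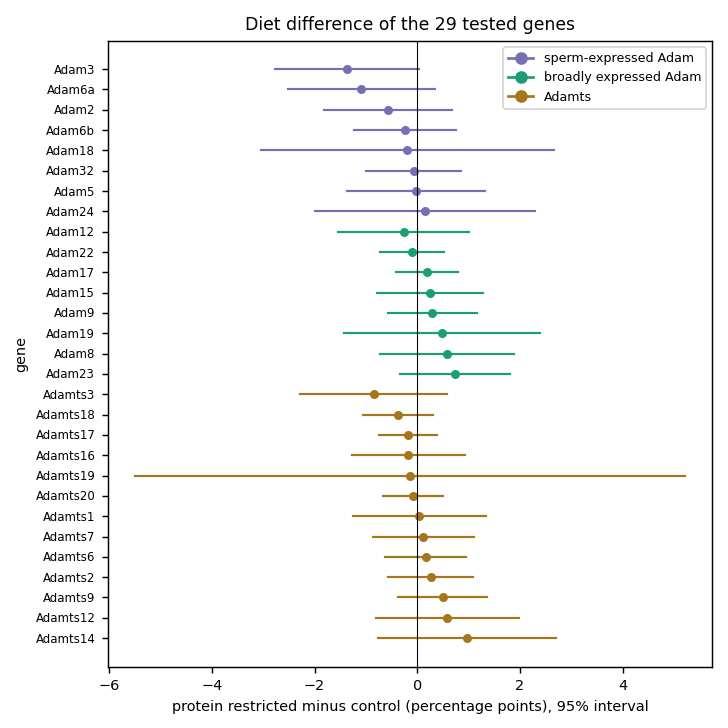
Difference in methylation, protein restricted minus control (percentage points, horizontal axis), for the 29 tested genes, with 95% intervals, coloured by gene class. Every interval includes 0; Adam3 comes nearest to excluding it, and Adamts19 has the widest interval, from −5.49 to 5.21.

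Among the 8 tested genes of the sperm surface, Adam3 showed the largest difference. Adam3 encodes cyritestin, which mouse sperm need to enter the oviduct. Its 5 CpGs (gene at mm10 chromosome 8, 24677232 to 24726377) were methylated at 97.3%, 97.7% and 99.5% in control (lowest, median and highest library) and at 93.7%, 96.8% and 98.4% in protein restricted libraries. The upper ends of the diets overlapped while the lowest protein restricted library lay below every control library. The fitted difference was −1.37 points (SE 0.647, 95% interval −2.77 to 0.0261; −2.07 at CpGs with at least 20 reads in every library), with a quasi-binomial p of 0.0535 and an adjusted p of 0.998. With 1 library left out the Adam3 difference ran from −1.59 (without PR 5) to −0.990 (without PR 3). Adam6a on chromosome 12 had 6 CpGs at 97.3%, 98.3% and 100% in control and at 94.7%, 97.5% and 98.9% in protein restricted libraries, a difference of −1.09 points (−2.53 to 0.351). Its neighbouring copy Adam6b, also with 6 CpGs, went from 96.7%, 98.3% and 99.2% to 96.6%, 97.7% and 98.9%, a difference of −0.241 points (−1.23 to 0.749). At both genes the diets overlapped. Without PR 2 the Adam6a difference was −0.697 points, and with 1 library left out the Adam6b difference ran from −0.523 (without Control 4) to −0.0555 (without Control 7). Adam2, for the fertilin beta subunit, had 12 CpGs at 96.2%, 97.3% and 98.7% in control and at 95.4%, 96.5% and 99% in protein restricted libraries, a difference of −0.571 points (−1.82 to 0.674), or −0.293 without Control 4. Adam1a, for a fertilin alpha subunit, had only 2 CpGs, too few for the test, and was the one sperm-expressed gene with a mean under 90%. It lay at 85.4%, 90.3% and 93.1% in control and at 77.1%, 86.7% and 93.8% in protein restricted libraries, with 30 to 84 reads per library. The remaining tested genes of the class, Adam5, Adam18, Adam24 and Adam32, had means of 93.0% to 98.1% and p-values of 0.866 to 0.976 in the quasi-binomial fit. Adam24 encodes testase, a sperm protease of the family.

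The broadly expressed Adam genes were the most even of the family, with gene means of 97.0% to 98.6%. Adam23, whose product binds the neuronal ligand LGI1 and has no protease activity, had 10 CpGs at 96.6%, 97.8% and 99.1% in control and at 96.9%, 98.6% and 99.7% in protein restricted libraries. The groups overlapped, with a difference of 0.735 points (−0.332 to 1.80) and an adjusted p of 0.998 in the quasi-binomial fit. Adam8, a gene of leukocytes, had 5 CpGs at 95.7%, 97.9% and 99.1% against 94.9%, 98.1% and 99%, a difference of 0.579 points (−0.727 to 1.88), or 0.200 without Control 6 and 0.207 with limma on percentages. Adam9, for meltrin gamma, had 7 CpGs at 97.5%, 98.6% and 99.1% against 96.8%, 98.7% and 99.5%, a difference of 0.290 points (−0.573 to 1.15), which ran from 0.127 without Control 4 to 0.519 without PR 7. Adam17 had 9 CpGs, read 304 to 830 times per library, at 97.7%, 98.4% and 98.9% against 97.7%, 98.7% and 98.9%. Its difference of 0.197 points (−0.406 to 0.800) had the narrowest interval of these 4 genes, and the 2 groups covered nearly the same range. It ran from 0.0700 without Control 2 to 0.300 without PR 8. Adam12 and Adam19, the meltrin alpha and beta genes, and Adam15 and Adam22 had means of 97.0% to 97.6%.

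The Adamts genes held both the most methylated and the least methylated members. Among the genes for proteases of aggrecan and versican, Adamts1, Adamts9 and Adamts20 had means of 98.1%, 98.1% and 97.5%, while Adamts15, with 1 CpG, had a mean of 66.1%. Adamts9 showed the largest difference of the tested genes among these, with 10 CpGs at 95.8%, 97.7% and 99.2% in control and 97.3%, 98.6% and 98.8% in protein restricted libraries (0.495 points, −0.367 to 1.36; 0.256 without Control 6). Among the procollagen N-proteinase genes, Adamts3 with 13 CpGs lay at 94.4%, 96.8% and 98.1% against 94.7%, 95.9% and 98.5% (−0.851 points, −2.29 to 0.585; −0.548 with limma on percentages), and Adamts2 had a mean of 96.7%. Adamts14, the third of them, stood lower, with 11 CpGs at 88.1%, 89.9% and 91.3% against 89.8%, 90.5% and 92.8% (0.973 points, −0.763 to 2.71; 3.48 at CpGs with at least 20 reads in every library). With 1 library left out the Adamts14 difference ran from 0.656 (without Control 3) to 1.24 (without Control 5). The diets overlapped at each of these genes. Adamts7 and Adamts12, whose products cut cartilage oligomeric matrix protein, had means of 98.9% and 95.7%. Adamts13, for the protease of von Willebrand factor, had 2 CpGs with a mean of 98.2%, and Adamts6, of the fibrillin-associated pair, a mean of 98.3%. Adamts16 had a mean of 98.3% and Adamts17 of 96.8%. Adamts18 had 24 CpGs at 96.7%, 97.3% and 97.9% against 96.4%, 96.9% and 98.0% (−0.374 points, −1.05 to 0.302; −0.774 at CpGs with at least 20 reads in every library and −0.244 without Control 4), again overlapping.

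**Figure D4:**
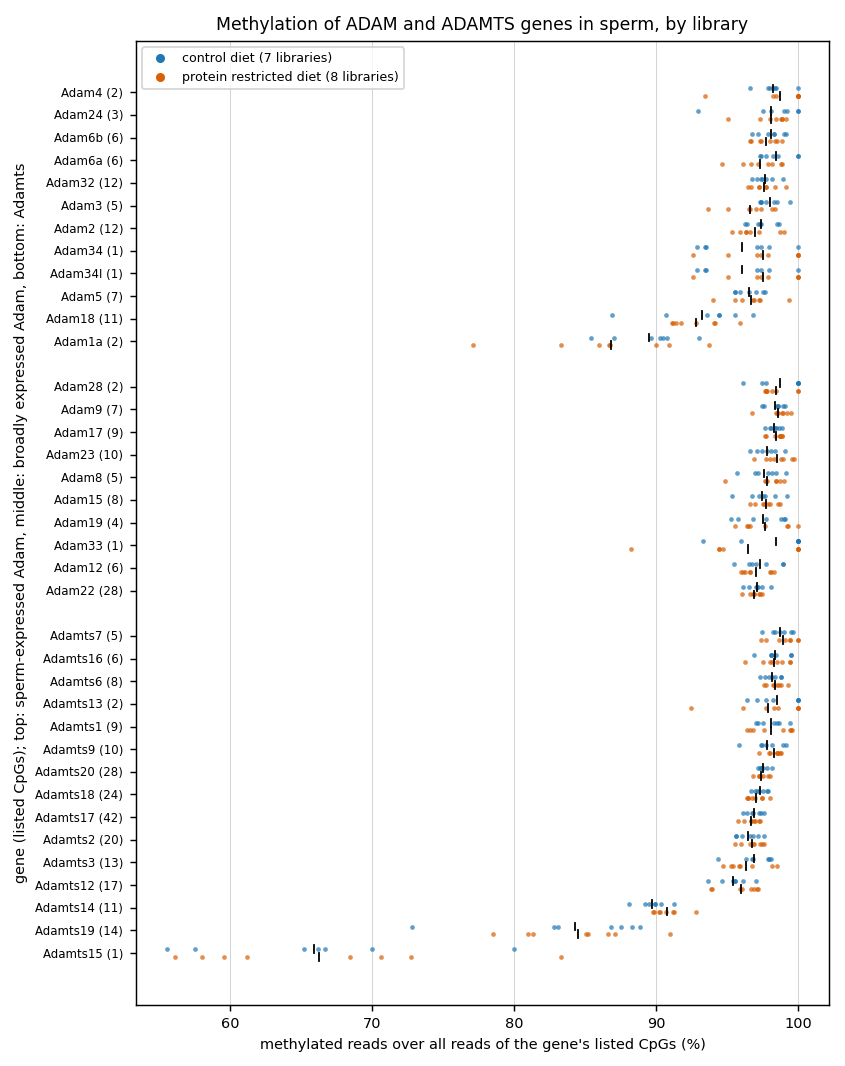
Methylation of each ADAM and ADAMTS gene with listed CpGs (vertical axis, number of CpGs in brackets), in percent of its reads (horizontal axis, starting above 0); each point is 1 library, blue for control and orange for protein restricted, and black marks are means. Adamts15, Adamts19 and Adam1a stand below 90%, and the diets overlap in every row.

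Adamts15 and Adamts19 were the 2 Adamts genes with a mean under 90%. Adamts15, whose product cuts versican, rested on a single CpG (mm10 chromosome 9, position 30919806), read 22 to 67 times per library, at 55.6%, 66.2% and 80.0% in control and at 56.1%, 64.8% and 83.3% in protein restricted libraries. Adamts19, a gene of chromosome 18 with 14 CpGs, lay at 72.8%, 86.9% and 88.9% in control and at 78.5%, 85.1% and 91.0% in protein restricted libraries. Its lowest library, Control 5, stood apart from the next control library at 82.8%, and the diets overlapped otherwise. The fitted difference was −0.139 points (−5.49 to 5.21), while the unweighted means, 84.3% and 84.5%, had the opposite sign. The dispersion of its summed counts, the spread between libraries relative to binomial counting, was 12.97, at percentile 99.9 of the 9223 genes. A read that covers several CpGs is counted once for each in such a sum, so counting alone can give more than 1.

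The low level and the spread of Adamts19 lay at 4 neighbouring CpGs, at chromosome 18 positions 58958073 to 58958177, more than 95 kb inside the gene. They lay at 33.8%, 58.9% and 69.8% in control (57.8% ± 12, SD over 7 libraries) and at 43.9%, 59.2% and 73.9% in protein restricted libraries (59.3% ± 8.43, SD over 8 libraries). Libraries were spread widely within each diet and the diets overlapped. Singly, the 4 CpGs had dispersions of 2.50 to 2.94, beside 10.3 for their sum. Their levels were correlated at 0.90 to 0.96 over the 15 libraries, given as a description only, since CpGs within 105 bp can be covered by the same reads. The other 10 CpGs of the gene stood at 97.7% and 97.6% with a dispersion of 1.003 for their summed counts.

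In all, 28 of the 354 CpGs (7.91%) had a mean under 90%, beside 10.3% of all listed CpGs and 6.90% of those at protein-coding genes. They fell in 18 separate places at 12 genes, 14 single CpGs and 4 stretches of neighbours within 300 bp, with 21 CpGs in 9 Adamts genes, 6 in Adam18 and Adam1a, and 1 in Adam22. The lowest CpG was in Adamts14 (chromosome 10, position 61237988), at 27.5%, 44.3% and 46.9% in control and at 36.9%, 51.1% and 61.9% in protein restricted libraries, with overlap and a quasi-binomial p of 0.112. The CpG at 61237819 stood at a mean of 89.4%, and 3 other listed neighbours stood at 97.7% to 98.7%. Levels at 61237988 and 61237819 were correlated at −0.688 over the 15 libraries, given as a description only. Their summed counts ran from 56.7% to 66.2%, so the sum was more even than its 2 CpGs. In Adamts18 the CpG at position 113751172 of chromosome 8 was at 57.1%, 74.1% and 95.8% in control and at 60%, 69.7% and 84.4% in protein restricted libraries, beside neighbours at 97.2% to 98.4%. In Adam22, whose product is a partner of ADAM23 at the LGI1 receptor, position 8141123 of chromosome 5 was at 60.7%, 75.0% and 88.5% against 63.8%, 76.1% and 82.4%. Each of these CpGs overlapped between diets.

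Stretches of several intermediate CpGs were also seen in Adam18 and Adamts12. In Adam18, which encodes a sperm surface protein, 4 CpGs at chromosome 8 positions 24603619 to 24603743, 1373 bp inside an end of the gene, lay at 70.6%, 85.3% and 96.7% in control and at 74.0%, 82.2% and 88.9% in protein restricted libraries. In Adamts12, 4 CpGs at chromosome 15 positions 11285723 to 11285895 lay at 72.1%, 84.7% and 90.5% against 77.2%, 85.6% and 95.2%. A dispersion over 2 was found at 16 of the 354 CpGs (4.52%), 14 of them in Adamts genes, beside 2.86% of all listed CpGs.

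**Figure D5:**
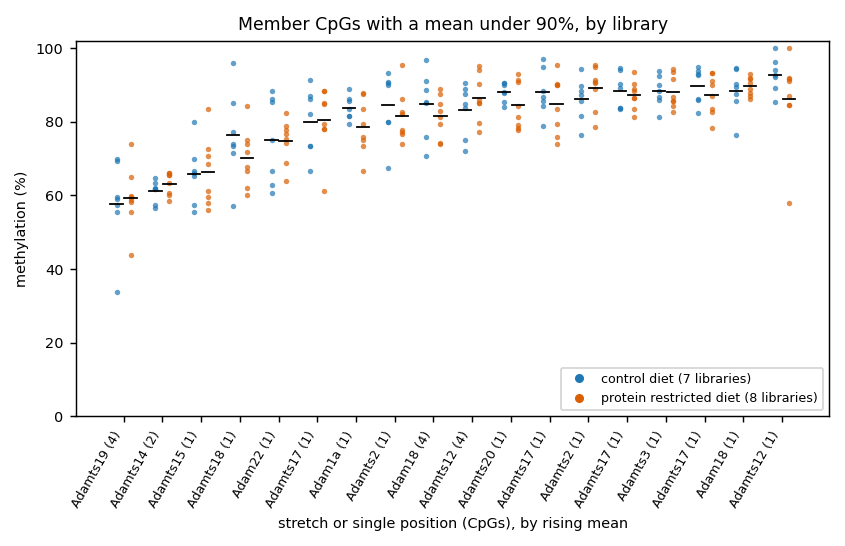
Methylation (percent, vertical axis) at the 18 places where member CpGs had a mean under 90%, ordered by mean, with the number of CpGs in brackets; each point is 1 library, blue for control and orange for protein restricted, and black lines are means. The 2 diets overlap at all 18 places, and the Adamts19 stretch runs from 33.8% to 73.9%.

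At single CpGs the quasi-binomial test over all 204492 positions called 0 of the 354 members, beside 0.0% of all CpGs. An unadjusted p under 0.05 was reached by 13 members (3.67%), near the background of 3.79%. Of these 5 were higher in protein restricted libraries and 8 lower, where 1.89% and 1.9% of all CpGs were. limma called 0 and gave 16 such members on percentages (4.52%, beside 4.56% of all CpGs) and 20 on logit values (5.65%, beside 4.56%). With the dispersion allowed below 1, 0 members were called where 194 of all CpGs were (0.0949%), and 19 members (5.37%, beside 7.83%) had an unadjusted p under 0.05. Of the 354 CpGs 176 were higher, 177 lower and 1 equal, and 0 were free of overlap between diets, beside 0.0191% of all CpGs.

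The smallest p in each direction was at a CpG of Adam22 and a CpG of Adamts2. In Adam22, position 8330234 of chromosome 5 was at 100% in every control library and at 89.5%, 96.7% and 100% in protein restricted libraries (quasi-binomial p of 0.00954, adjusted p of 1). In Adamts2, position 50792168 of chromosome 11 was at 82.6%, 91.7% and 96.6% in control and at 92.9%, 96.9% and 100% in protein restricted libraries, a difference of 5.41 points (p of 0.0263, adjusted p of 1). With a mean coverage of about 29 reads in both, 1 read was worth several percentage points, and the diets overlapped. Lower in protein restricted libraries were also CpGs of Adamts16 (97.6% against 100%), Adam18 (98.1% against 100%), Adamts17 (96.9% against 99.6%), Adamts18 (95.8% against 99.3%) and, elsewhere in that gene, Adamts2 (97.1% against 100%). Higher were CpGs of Adamts17 (100% against 99%), Adamts16 (99.2% against 96%), Adam17 (98.9% against 97.3%), Adam23 (100% against 98.4%) and Adam15 (98.8% against 96.1%). In the quasi-binomial test the unadjusted p was 0.0577 at the Adam23 CpG and 0.0753 at the Adam15 CpG, neither under 0.05. At the other CpGs named here it ran from 0.00954 to 0.0450. Adamts2, Adamts16 and Adamts17 appear in both directions at different positions, and each of the 12 CpGs had an adjusted p of 1. With the dispersion allowed below 1 their adjusted p-values ran from 0.0529 (the lower Adamts16 CpG, at 70783272) to 0.722 (Adam15). A group at 100% in every library adds nothing to the dispersion, and without the floor a low dispersion lowers p. All control libraries of that Adamts16 CpG were at 100%, and its dispersion was 0.224. At the Adam22, Adam18 and lower Adamts2 CpGs all control libraries were also at 100%. Without Control 4 the difference at the higher Adamts17 CpG went from 1.32 to 0.412 points, and without PR 2 that at the lower Adamts2 CpG went from −2.30 to −1.25 points.

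Of genes that act with or resemble these proteases, 0 in each of 5 lists passed the gene test, beside 0.0% of all 9223 genes. Over all 9223 genes 49.4% were lower in protein restricted libraries, and 2.99% had an unadjusted quasi-binomial p under 0.05. Of the inhibitors, activators and carriers, such as the TIMP inhibitors and furin, 11 of 17 genes could be tested, 8 higher and 3 lower in protein restricted libraries, with a median of 0.121 points. The smallest p there was at Rhbdf1, for an iRhom that carries ADAM17 to the cell surface, with 98.9% ± 0.776 in control and 97.4% ± 1.83 in protein restricted libraries (p of 0.0183, adjusted p of 0.998, quasi-binomial). Of the partners that fold sperm ADAM proteins or take part in fertilization 7 of 19 could be tested, 2 higher and 5 lower, with a median of −0.431 points. Zpbp, for a zona pellucida binding protein of the acrosome, had the smallest p of all lists, at 98.8% ± 0.378 against 96.9% ± 1.21 (p of 0.00540, adjusted p of 0.998, quasi-binomial). Of shed or cleaved substrates 18 of 31 were tested, 10 higher and 8 lower (median 0.131 points). The smallest p there was 0.0730 (quasi-binomial), at the Notch ligand gene Jag1, with 92.0% ± 2.02 against 93.5% ± 1.13. Of the related Adamtsl and neighbour families 6 of 9 were tested, 4 higher and 2 lower (median 0.0465 points). Adamtsl4 had their smallest p, 0.310 (quasi-binomial), at 74.1% ± 4.99 against 77.2% ± 5.75. Of other zinc metalloproteases 12 of 28 were tested, 4 higher and 8 lower (median −0.0956 points). Mmp25 had the smallest p of that list, 0.125 (quasi-binomial), at 94.1% ± 1.84 against 95.4% ± 1.30.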

How the data were processed

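Methylation was measured by RRBS in 15 sperm libraries, grouped by the diet in the labels. The deposited files give raw counts of methylated and of all reads per CpG, made by the authors with no normalization stated; mm10, Bismark 0.7.12 and Bowtie2 2.1.0 are named in the submitters' processing notes, while the sources used here do not give trimming, filters or strand merging. No library had fewer than 11 methylated reads at a listed position, so a coverage minimum of 10 removed nothing. The 276 listed positions inside promoter windows all read CG.

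Percent methylation is methylated over total counts. Each CpG, and each protein-coding gene with at least 3 listed CpGs (span with 2 kb flanks, counts summed), was tested with a two-group quasi-binomial F test (13 residual degrees of freedom, dispersion of at least 1, Benjamini-Hochberg over all units). The code was run on simulated counts with binomial spread alone. Its error rate where libraries spread more than that was therefore not checked. Class values are means over CpGs and have no p. Gene spans and promoters come from RefSeq GRCm38.p6. Members and lists were chosen with earlier results of these data known. Named are the 4 genes per class with the smallest p, genes with a mean under 90%, 6 CpGs per direction with 1 per gene, genes with most and fewest CpGs, and the top gene of each list. The 18 places under 90% were described after their values were seen. Alternatives were a coverage of 20, gene spans alone, summed counts, each gene once, leaving out CpGs above 200 reads, genes with at least 1 listed CpG, the dispersion allowed below 1, limma on percentages and on logits (pseudocount 1), and each library left out. Python 3.11.15, numpy 2.4.6, scipy 1.17.1, pandas 2.3.3, matplotlib 3.10.9, R 4.3.3 and limma 3.58.1 were used. At a library's median coverage, 26 to 42 reads, the 95% counting half-width in the middle of the scale is 15.1 to 19.2 points, which covers counting error only.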

Additional observations from a re-analysis of the deposited data

Results flagged for a closer look

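In 96 groups examined, 8 held 1 library standing far below the others of its diet by Dixon's criterion. Its nominal rate of about 1 in 20 is for independent groups of normally distributed values. Many percentages here lie near their upper limit, and some groups share CpGs, such as Adamts19 and its 4-CpG stretch. The count of 8 therefore cannot be read against that rate. At Adamts19, Control 5 lay at 72.8% for the whole gene (next control library 82.8%) and at 33.8% in its 4-CpG stretch (next 55.6%). At Adam8, PR 6 lay at 94.9% (next 97.7%), and at Adam9, PR 7 lay at 96.8% (next 98.4%). At the Adamts17 CpG at 66944332, Control 4 lay at 94.9% (next 97.9%). At the Adamts17 CpG at 66974977, PR 1 lay at 61.1% (next 78.0%). At the Adamts2 CpG at 50732435, PR 2 lay at 85.7% (next 94.7%), and at the Adamts12 CpG at 11146835 the same library lay at 57.9% (next 84.6%).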

How the results depend on the processing

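The counts of called member CpGs and genes were 0 under each alternative run, with every library left out in turn included. An unadjusted p under 0.05 was reached by 9 to 16 CpGs with 1 library left out (2.54% to 4.52%, beside 3.63% to 3.76% of all CpGs). Genes with such a p numbered 0 to 2 there (0.0% to 6.90%, beside 2.55% to 3.24% of all genes). At a coverage of 20 reads there were 5 of 175 CpGs (2.86%, beside 3.47%) and 2 of 25 genes (8.0%, beside 3.54%). Allowing the dispersion below 1 gave 19 CpGs (5.37%, beside 7.83%) and 1 gene (3.45%, beside 4.81%). With 1 library left out, the diet difference ran from −0.803 to −0.444 points in sperm-expressed Adam, from 0.0572 to 0.212 in broadly expressed Adam and from −0.0653 to 0.159 in Adamts genes. Under the other settings these ran from −0.708 to −0.253, from −0.107 (each gene counted once) to 0.183, and from 0.0633 to 0.158. The level of sperm-expressed Adam minus Adamts genes ran from 0.175 to 0.324 points with 1 library left out. It moved to 2.98 at a coverage of 20 reads, 1.11 from summed counts and 2.24 with each gene counted once. In the last of these the single CpG of Adamts15, at a mean of 66.1%, has the weight of a whole gene. The cause was not tested. The Adamts19 difference changed sign with limma on percentages (0.166) and ran from −1.81 without Control 5 to 1.12 without PR 2, with the sign changed without Control 1 (0.571), Control 2 (0.457), Control 3 (0.338), Control 7 (0.272), PR 3 (0.372) or PR 6 (0.154). No paired analysis was possible because the labels carry no replicate numbers shared between the diets. The list leaves out positions where a library had fewer than 11 methylated reads, so low methylation, and most promoters, were out of reach.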

Other observations

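The other member genes with too few CpGs for a test were Adam28 (2 CpGs, 98.8% ± 1.61 in control and 98.4% ± 0.995 in protein restricted libraries), Adam33 (1 CpG, 98.5% ± 2.71 and 96.5% ± 4.29), Adam4 (2 CpGs, 98.2% ± 1.001 and 98.8% ± 2.27), Adamts13 (2 CpGs, 98.5% ± 1.502 and 97.9% ± 2.57) and the CpG shared by Adam34 and Adam34l (96% ± 2.76 and 97.5% ± 2.64), as mean and SD over libraries. At Adamts14 the CpG at 61237819, near the lowest CpG of the family, had a dispersion of 3.01 and library values of 68.8% to 100%. Outside the family, 6 of the 354 CpGs also lay at other genes: Dcst1 and Dcst2 at Adam15, Tmem116 at Adam1a, and Cox16 and Gm20498 at Adam4.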
